A study of Mus musculus with 9 samples.

Results

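Dntt and 8 other genes of B-lineage antigen receptor assembly were described for H3K27me3, the trimethyl mark on lysine 27 of histone H3 that Polycomb repressive complex 2 places at silenced genes. The 9 genes (Dntt, Rag1, Rag2, Ebf1, Cd79a, Cd79b, Vpreb1, Igll1 and Blnk) are a small set out of 21887 protein-coding genes on chromosomes 1 to 19, X and Y. They were chosen by name, and the set was selected on the calls of Dntt, whose marked libraries cross between genotype and treatment. The Dntt calls and cover are therefore given as a description, with no test.

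The cells were lineage-negative, c-Kit-positive progenitors, stem cells included, taken fresh from the bone marrow of transplanted female C57BL/6 mice after 1 month of vehicle (VEH) or metformin (MET), an inhibitor of mitochondrial complex I. WT cells were Dnmt3a+/+ and RH cells Dnmt3afl-R878H/+, a heterozygous conditional allele of a de novo DNA methyltransferase. Both genotypes carried the Mx1-cre transgene, a Cre recombinase under an interferon-inducible promoter that is active in blood cells and in other tissues, so that the controls share the Cre. The labels do not say how recombination was induced, whether the genotype is that of donor or host cells, or how many animals gave each library. Each of the 4 groups (WT VEH, WT MET, RH VEH and RH MET) had 2 libraries.

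Dntt encodes terminal deoxynucleotidyl transferase, the polymerase that adds untemplated nucleotides at the joints of immunoglobulin and T cell receptor genes. Rag1 and Rag2 form the recombinase that cuts the gene segments before they are joined. Ebf1 is a transcription factor that commits lymphoid progenitors to the B lineage, and its targets include Cd79a and Cd79b, the signalling chains of the B cell receptor, Vpreb1 and Igll1, the 2 parts of the surrogate light chain, and Blnk, the adaptor that links the receptor to its downstream enzymes. In early progenitors Polycomb commonly holds CpG-rich starts of lineage regulators, whereas CpG-poor starts of lineage effectors more often lack the mark.

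Promoter sequences were set side by side to show the CpG content of starts inside an interval in all, some or none of the libraries. Each run is the 250 bases before the first listed start in RefSeq (GRCm38.p6, the assembly of mm10), 5' to 3' on the gene's strand, with CpG dinucleotides in capitals. Dntt lies at chr19:41029025-41029274 (plus strand) and had its start inside an interval in 2 libraries. Ebf1 lies at chr11:44617850-44618099 (plus strand) and had its start inside an interval in all 8 libraries. Blnk lies at chr19:40994222-40994471 (minus strand) and Cd79a at chr7:24897247-24897496 (plus strand), and neither had an interval in any library.
Dntt: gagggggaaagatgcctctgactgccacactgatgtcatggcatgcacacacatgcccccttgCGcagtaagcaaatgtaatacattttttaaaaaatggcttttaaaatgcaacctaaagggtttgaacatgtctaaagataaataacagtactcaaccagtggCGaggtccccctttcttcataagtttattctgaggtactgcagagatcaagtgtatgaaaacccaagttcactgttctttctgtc
Ebf1: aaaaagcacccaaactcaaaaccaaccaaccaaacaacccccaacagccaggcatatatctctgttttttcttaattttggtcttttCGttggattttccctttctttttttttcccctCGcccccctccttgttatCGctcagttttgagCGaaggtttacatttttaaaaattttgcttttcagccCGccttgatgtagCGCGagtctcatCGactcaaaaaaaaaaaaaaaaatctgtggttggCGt
Blnk: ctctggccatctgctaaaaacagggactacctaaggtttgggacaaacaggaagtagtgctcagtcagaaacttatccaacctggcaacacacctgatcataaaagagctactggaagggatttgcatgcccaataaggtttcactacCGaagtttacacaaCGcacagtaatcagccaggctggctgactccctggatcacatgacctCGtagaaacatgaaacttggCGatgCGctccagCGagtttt
Cd79a: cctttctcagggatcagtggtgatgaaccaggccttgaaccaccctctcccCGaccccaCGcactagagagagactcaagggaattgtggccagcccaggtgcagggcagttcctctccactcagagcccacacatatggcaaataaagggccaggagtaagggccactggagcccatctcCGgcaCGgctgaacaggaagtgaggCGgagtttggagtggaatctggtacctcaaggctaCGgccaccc

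Ebf1 held 9 CpG dinucleotides in this stretch, and 14 before its second listed start. Dntt held 2, Vpreb1 2, Igll1 1, Rag1 3, Rag2 3, Blnk 6 and Cd79a 6. Over 17486 promoters of the same length in the table the median was 10, with a median of 13 for the 5019 genes called in all 8 libraries and 6 for the 9354 called in none. Dntt, with 41.6% GC, held as few as Vpreb1, which had no interval, and 83.8% of promoters held at least as many CpG dinucleotides. The E-box CANNTG, the recognition sequence of E proteins such as E2A, occurred 3 times before the Dntt start on either strand, and 62.7% of all promoters held at least 1. The E2A-type E-box CAGGTG, which is itself a CANNTG match, occurred in Rag1, Cd79a, Vpreb1, Igll1 and Blnk and in 16.5% of all promoters. The EBF1 motif, TCCC and GGGA with any 2 bases between them, was in none of the 8 genes matched in the table and in 0.818% of all promoters. Only exact matches were counted, so EBF1 sites that depart from this pattern would be missed.

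Values per library are intervals called by the authors in that library, and a gene was counted as called where an interval overlapped its span with 5 kb flanks by at least 1 bp. The libraries held 11620 to 16879 intervals that covered 80.0 to 186 Mb. RH VEH 1 had the fewest intervals and the smallest cover, and WT MET 2 the largest cover. Between 33.1% and 41.3% of genes were called per library. Read depth per library is unknown, so a gene without an interval may still carry the mark below the limit of calling. Of the anchor genes, Hoxd11, Pax6 and Gata4, regulators of other tissues, and Pax5, the B-cell identity factor, were called in all 8 libraries, and the housekeeping genes Actb and Gapdh in none. To check the labelled cell type, markers were looked up. Of 12 T-lineage markers 9 were called in all 8 libraries and Cd8a in none, and of 9 stromal and endothelial markers 7 in all 8 and Cdh5 and Pecam1 in none. Over all genes, 29.9% were called in all 8 libraries and 52.6% in none. Of 10 stem and progenitor markers, Gata2 and Tal1 were called in all 8, with at least 72.2% and 51.2% of their windows covered, and Lmo2 in none. Kit, on which the cells were enriched, was called in 5, with 2.18% to 9.16% covered. The marker lists thus did not split cleanly by lineage in this mark.

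H3K27me3 intervals lay in the first part of Dntt in 4 of 8 libraries, over the start in both WT MET and inside the gene in both RH VEH, and in no WT VEH or RH MET library. Dntt spans chr19:41029275-41059525 on the plus strand, a window of 40251 bp with its flanks. In WT MET 1 a single interval of 8.0 kb (chr19:41026801-41034800) ran from 2.47 kb before to 5.53 kb after the first listed start, with a summit height of 14. In WT MET 2 an interval of 6.2 kb ran from 0.874 kb before to 5.33 kb after it, with a height of 18. Both WT MET intervals covered the start itself. The summit height is the authors' own whole-number value for the highest point of an interval, with no unit given. It ranks intervals within a library, and heights may not be comparable between libraries.

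In the mutant vehicle libraries the intervals were shorter and began inside the gene. The Dntt interval of RH VEH 1 was 3.2 kb long, from 0.726 to 3.93 kb after the start, with a height of 8. That of RH VEH 2 was 5.0 kb long, from 1.33 to 6.33 kb after the start, with a height of 10. Neither reached the start of Dntt. All 4 intervals overlapped in the first part of the gene and merged into a single region, chr19:41026801-41035600, which touched no other protein-coding gene.

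**Figure D1:**
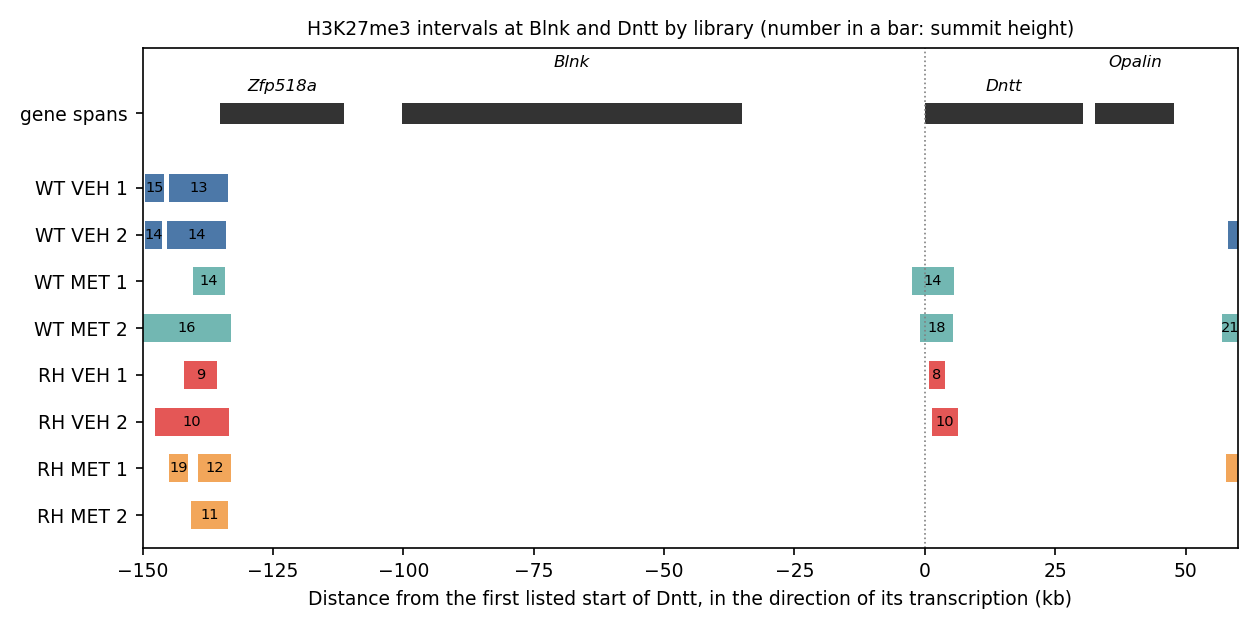
H3K27me3 intervals by library (rows, coloured by group) around Blnk and Dntt, with gene spans in black and the distance from the first listed Dntt start in kb on the horizontal axis. Bars at Dntt are present in both WT MET and both RH VEH libraries, with heights of 14, 18, 8 and 10, and no bar lies over Blnk in any library.

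The share of the Dntt window covered was 19.9% in WT MET 1, 15.4% in WT MET 2, 7.95% in RH VEH 1 and 12.4% in RH VEH 2. It was 0 in WT VEH 1, WT VEH 2, RH MET 1 and RH MET 2. The group means were 17.6% ± 3.16 in WT MET and 10.2% ± 3.16 in RH VEH (SD, n = 2). Cover was not scaled to the total of each library, which was smallest in RH VEH 1 and largest in WT MET 2. With metformin the mean thus went from 0 to 17.6% in WT cells and from 10.2% to 0 in RH cells. The mean of the 4 libraries with an interval minus that of the 4 without was 13.9 percentage points, with an SD of 5.02 among the former. Without RH VEH 1 this difference was 15.9.

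Ranked within their own library, the Dntt intervals were of middling to low height. Their summits stood at percentile 41.0 in WT MET 1, 55.2 in WT MET 2, 18.1 in RH VEH 1 and 20.7 in RH VEH 2. The WT MET summits were near the middle of their libraries and the RH VEH summits well below it. With only intervals of height 15 or more, Dntt stayed called in WT MET 2 alone. In the 4 libraries without a Dntt interval the nearest interval lay 27.5 to 49.9 kb from the gene span, so that no call was missed at the edge of the window.

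**Figure D2:**
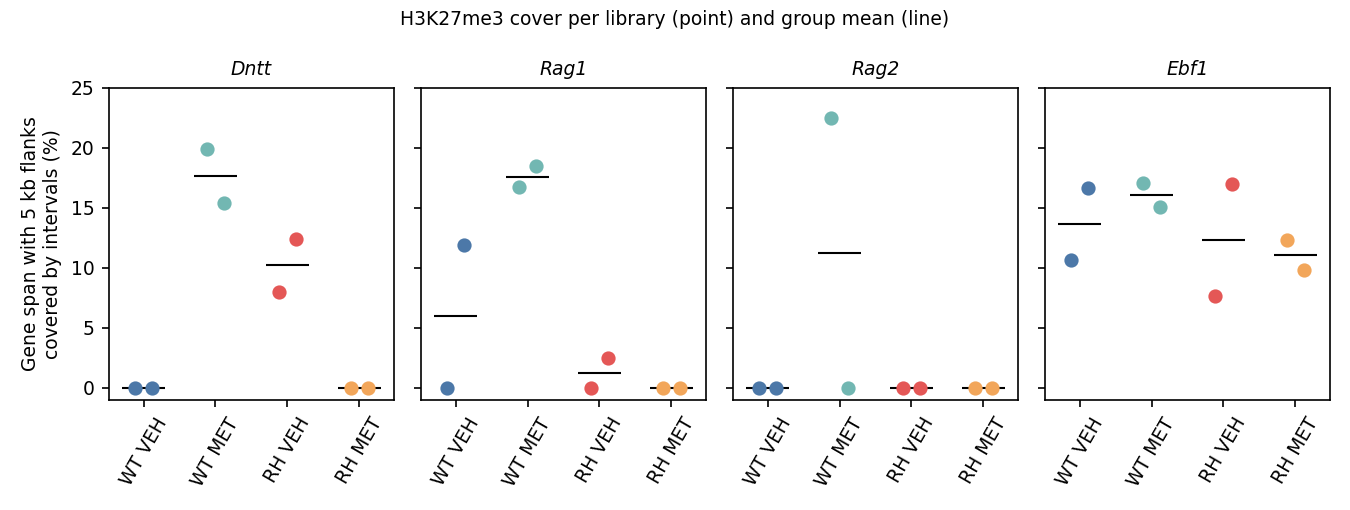
Percent of the gene span with 5 kb flanks covered by H3K27me3 intervals at Dntt, Rag1, Rag2 and Ebf1, with each point a library and each line the mean of 2 libraries of a group. Dntt points lie above 0 only in WT MET and RH VEH, Rag1 points reach 18.5% in WT MET, Rag2 has a single point above 0, and Ebf1 points lie between 7.63% and 17.0% in all groups.

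Few genes shared this pattern of calls. Among all protein-coding genes, 5 including Dntt (0.0228%) were called in every WT MET and RH VEH library and in no WT VEH or RH MET library, and 1 (0.00457%) showed the reverse. The other 4 were ordered by their mean absolute difference from Dntt in percent covered over the 8 libraries. Golga7, which encodes a Golgi protein, was nearest with 1.32 percentage points. Its cover was 14.9% and 15.6% in WT MET and 10.9% and 14.9% in RH VEH. Rps28, a ribosomal protein gene, followed with 2.88, Zkscan7, a zinc finger gene, with 4.99 and 1110059G10Rik with 5.19. Zkscan7 and 1110059G10Rik are neighbours on chromosome 9. The marked regions at Golga7, Rps28 and 1110059G10Rik lay wholly outside the gene spans, in the flanks, and without flanks 2 genes had the pattern. Leaving out a library removes a requirement, so the number of genes with either pattern could only stay or rise. The number with the Dntt pattern was 22 without RH VEH 1, 11 without WT VEH 2 and 8 without WT MET 1. The reverse pattern was found at 12 genes without WT VEH 1 and at 12 without WT MET 2.

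In the comparisons of 2 libraries with 2, which cannot go below an exact p of 0.333, genes were counted that both libraries of a group called and neither of the other. These comparisons share libraries, and their values are set side by side only. In RH VEH against WT VEH, Dntt was the only 1 of the 9 genes called in RH VEH alone, beside 0.196% of all genes, and 0 of 9 were called in WT VEH alone, beside 1.02%. In RH MET against RH VEH, Dntt was called in RH VEH alone, beside 0.206% of all genes, and 0 of 9 in RH MET alone, beside 1.20%. In WT MET against WT VEH, Dntt was called in WT MET alone, beside 1.04%, and 0 of 9 in WT VEH alone, beside 0.178%. In RH MET against WT MET, Dntt and Rag1 were called in WT MET alone, beside 1.03%, and 0 of 9 in RH MET alone, beside 0.361%. Nothing was read from the Dntt counts, since its calls chose the set.

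Rag1 and Rag2 had no interval within either gene span in any library. The 2 genes face each other on chromosome 2, Rag2 at chr2:101624712-101632528 (plus strand) and Rag1 at chr2:101638252-101649532 (minus strand), with 5.72 kb between them. The intervals near Rag1 belonged to a region upstream of its start, chr2:101650601-101665400, which lies from 1.07 to 15.9 kb before the start and over the noncoding RNA gene Gm34041. This region was marked in 6 of 8 libraries, all but WT VEH 1 and RH VEH 1. The length covered in it was 8.4 kb in WT VEH 2, 4.8 kb in WT MET 1, 13.6 kb in WT MET 2, 5.8 kb in RH VEH 2, 4.6 kb in RH MET 1 and 10.8 kb in RH MET 2. Each group held at least 1 marked library, so the upstream region did not separate the groups. The next region away from Rag1, chr2:101666001-101679600, which reaches the gene of the signalling adaptor Traf6, was marked in all 8 libraries.

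**Figure D3:**
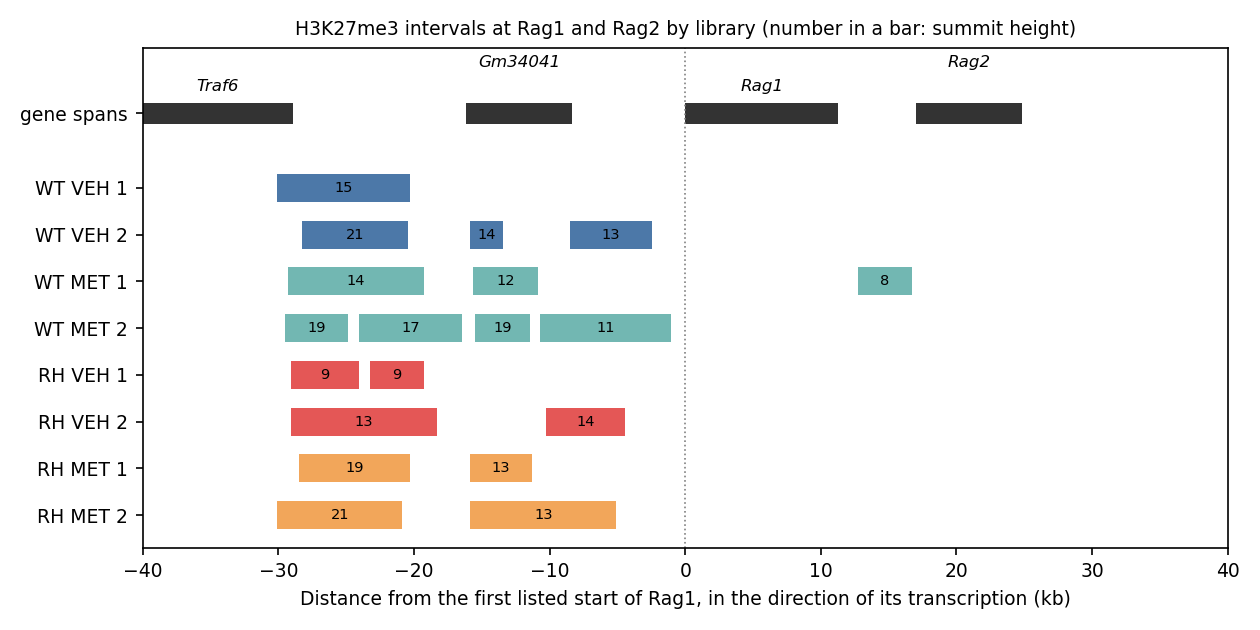
H3K27me3 intervals by library (rows, coloured by group) around Rag1 and Rag2, with gene spans in black and the distance from the Rag1 start in kb on the horizontal axis. No bar overlaps either gene, bars upstream of Rag1 over Gm34041 occur in 6 of 8 libraries, and WT MET 1 alone has a bar between the 2 genes, with a height of 8.

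How the Rag1 calls fell among the groups turned on where the edges of this region lay. The intervals reached into the 5 kb flank by 2532 bp in WT VEH 2, by 3932 bp in WT MET 2 and by 532 bp in RH VEH 2. Their summit heights stood at percentiles 38.4, 9.67 and 50.3 of these libraries. In RH MET 2 the interval ended 69 bp outside the flank. WT MET 1 was called through another interval, of 4.0 kb between Rag1 and Rag2 (chr2:101632801-101636800), whose height of 8 stood at percentile 0.634 of its library. The call of Rag1 in both WT MET and neither RH MET library thus rested on 2 different intervals, and it was lost with flanks of 10 kb, without flanks, and when only the 11620 highest intervals of each library were used.

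The Rag1 window was covered to 5.95% ± 8.41 in WT VEH, 17.6% ± 1.27 in WT MET, 1.25% ± 1.77 in RH VEH and 0 in both RH MET libraries (SD, n = 2). Over the 4 libraries of each genotype the mean was 0.625% ± 1.25 in RH and 11.8% ± 8.32 in WT. The difference of -11.1 percentage points did not pass the test (two-sided exact permutation over 70 assignments, p = 0.143, adjusted p = 0.804 over 10379 genes). It was -6.77 with flanks of 10 kb and -2.35 when each library was held to its 11620 highest intervals. By treatment the Rag1 mean was 8.79% ± 10.2 in MET and 3.60% ± 5.66 in VEH (exact permutation p = 0.429, adjusted p = 1). With those 11620 intervals its sign changed, to -3.60.

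Rag2 was called in WT MET 1 alone, through the interval between the 2 genes, which covered 22.5% of its window. The other 7 libraries had no interval there. The difference between genotypes was -5.61 percentage points and that between treatments 5.61 (both exact permutation p = 1), and both rest on that 1 library. With 1 library above 0, every assignment gives the same absolute difference, so this p was fixed whatever the value and decides nothing.

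Ebf1 was marked in every library, over and around its start. It is a long gene, chr11:44618100-45008096 on the plus strand, and 7.63% to 17.0% of its window was covered, with a median of 13.7%. The cover was 13.7% ± 4.21 in WT VEH, 16.1% ± 1.38 in WT MET, 12.3% ± 6.58 in RH VEH and 11.1% ± 1.80 in RH MET (SD, n = 2). RH VEH 1, the library with the smallest total cover, also had the lowest Ebf1 cover. Between genotypes the mean was 11.7% ± 4.0 in RH and 14.9% ± 2.91 in WT (difference -3.19, exact permutation p = 0.257, adjusted p = 0.903). That difference was -0.234 when cover was scaled by the total of each library, -1.05 with the 11620 highest intervals of each and -1.84 without RH VEH 1. Between treatments it was 13.6% ± 3.17 in MET and 13.0% ± 4.58 in VEH (difference 0.59, exact permutation p = 0.8, adjusted p = 1). The sign of the latter changed without any 1 of WT VEH 1, WT MET 1 and RH VEH 1, with values of -0.18, -0.57 and -1.19.

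The interval over the Ebf1 start was broad and among the highest of each library. Its length was 22 kb in WT VEH 1, 22.2 kb in WT VEH 2, 28.8 kb in WT MET 1, 27 kb in WT MET 2, 19 kb in RH VEH 1, 24.8 kb in RH VEH 2, 23 kb in RH MET 1 and 26.6 kb in RH MET 2. Its summit height was 44 and 64 in WT VEH, 67 and 80 in WT MET, 33 and 46 in RH VEH and 61 and 51 in RH MET. These heights stood at percentiles 87.7 to 93.8 of their libraries, above the Dntt summits in every library that had both. The 4 MET libraries averaged 64.8 ± 12.1 and the 4 VEH libraries 46.8 ± 12.8, with ranges that overlapped. This measure was picked after its values were seen. Its difference did not pass an exact permutation test by treatment (p = 0.0857, adjusted p = 0.305 over 8 tests at Ebf1) or by genotype (p = 0.171, adjusted p = 0.305). Raw heights may not be comparable between libraries. Divided by the median height of their library, they averaged 4.12 ± 0.549 in MET and 3.31 ± 0.676 in VEH (exact permutation p = 0.114, adjusted p = 0.305). Of the 8 tests, the smallest p was for the length of the interval over the start, by treatment. The length averaged 26.35 ± 2.43 kb in MET and 22 ± 2.37 kb in VEH (exact permutation p = 0.0571, adjusted p = 0.305), and this did not pass either. The summit lay within 0.301 kb after the start in 5 libraries, and at -6.68 to -4.72 kb, before the start, in WT VEH 1, RH VEH 1 and RH VEH 2.

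**Figure D4:**
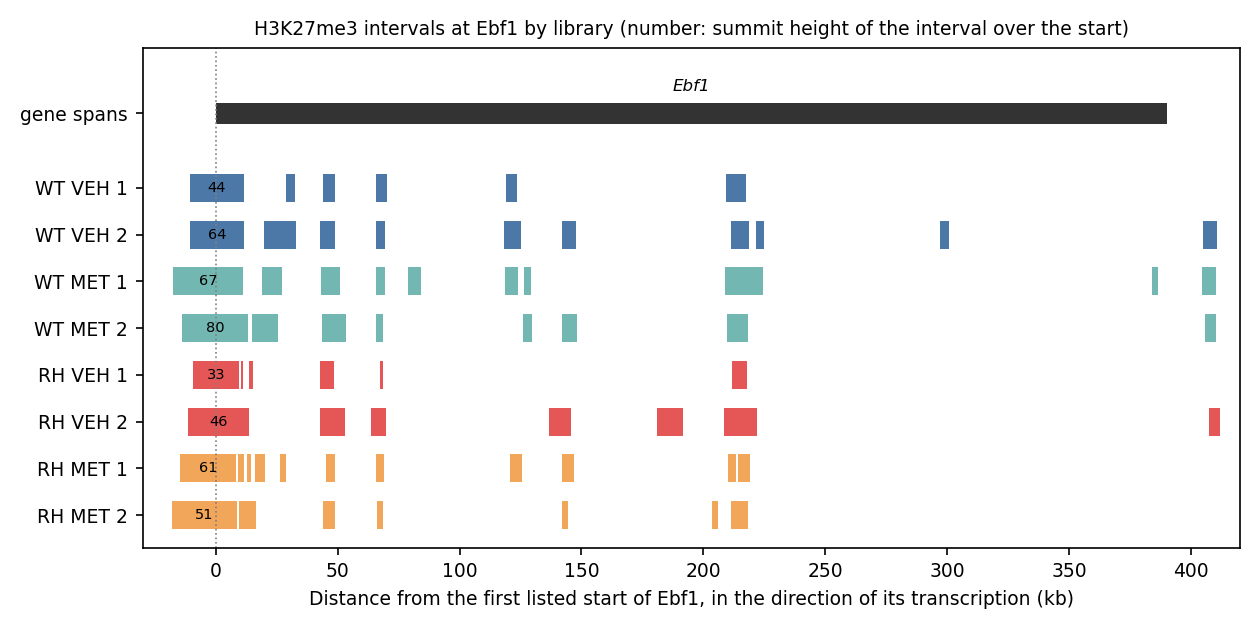
H3K27me3 intervals by library (rows, coloured by group) along Ebf1, with the gene span in black, the distance from the first listed start in kb on the horizontal axis and the summit height printed on the interval over the start. A broad bar lies over the start in all 8 libraries, with heights from 33 to 80, and shorter bars within the gene recur in part of the libraries.

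Within Ebf1 a few places were marked in every library and others in single libraries. The intervals in its window merged into 12 regions, of which 4 were present in all 8 libraries and 5 in only 1. Besides the start, the regions common to all 8 lay from 42.7 to 53.3 kb, from 63.5 to 70.3 kb and from 208.5 to 224.7 kb after the first listed start. At the region 42.7 kb into Ebf1 the heights ran from 12 in RH VEH 1 to 29 in WT VEH 2. A region from 118.3 to 125.5 kb, 1 of the 12, was marked in both WT VEH libraries, WT MET 1 and RH MET 1. It was unmarked in both RH VEH libraries, WT MET 2 and RH MET 2. RH VEH 1 had the fewest intervals of all libraries. How often regions elsewhere fall this way was not counted, so nothing was read from this region.

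The genes that encode the receptor chains and their adaptor carried no interval in any library. Cd79a (chr7:24897497-24901858) had its nearest interval 19.3 kb away, in WT VEH 2 only. Cd79b (chr11:106311341-106314562) was 149 kb from the nearest region. Vpreb1 (chr16:16868401-16869255, minus strand) and Igll1 (chr16:16860671-16863985, minus strand), whose spans are 4.42 kb apart, were 189 and 194 kb from the nearest region. Blnk (chr19:40928927-40994221, minus strand) is the neighbour of Dntt and points away from it, with 35.1 kb between the spans. The region nearest to Blnk, at 32.6 kb, was the one at Dntt, and it did not extend to Blnk in any library that carried it. In all, 5 of the 9 genes were called in no library, beside 52.6% of all genes, and 1 of 9 in all 8 libraries, beside 29.9%.

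**Figure D5:**
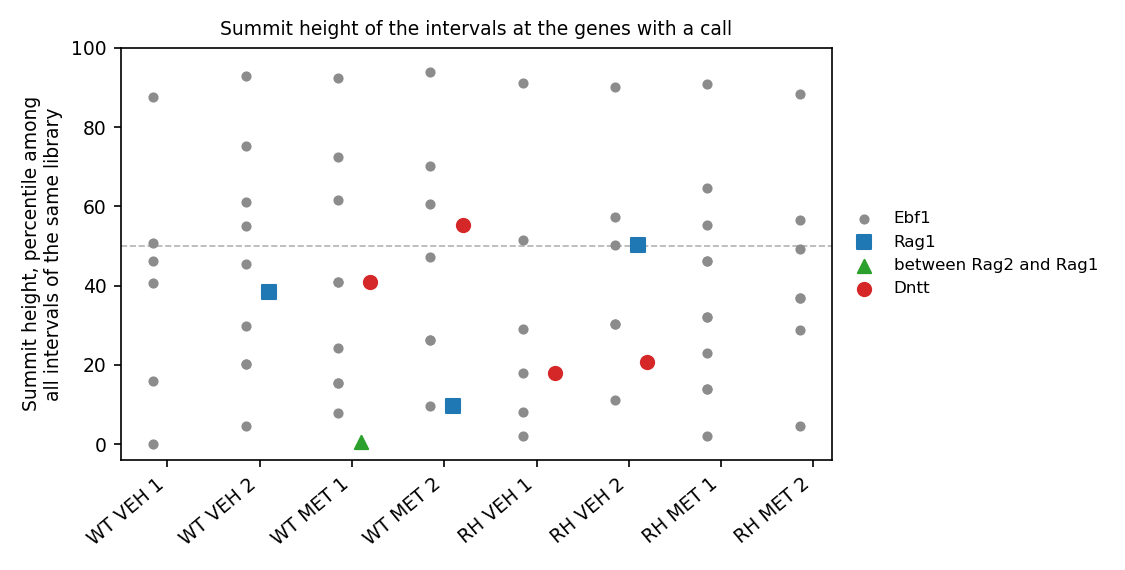
Summit height of each interval at Ebf1, Rag1, Rag2 and Dntt as a percentile among all intervals of the same library (vertical axis), by library (horizontal axis), with a dashed line at 50. The highest Ebf1 point of each library, the interval over its start, lies between 87.7 and 93.8, the Dntt points lie between 18.1 and 55.2, and the interval between Rag2 and Rag1 in WT MET 1 lies at 0.634.

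Other genes of the pathway were set beside these 9. Over all genes, 33.1% to 41.3% were called per library, 29.9% in all 8 libraries and 52.6% in none. Of 13 further genes of V(D)J recombination and end joining, 2 to 3 were called per library and 10 in none, among them Lig4, the ligase of end joining, and Polm, the polymerase most similar to Dntt in sequence. Nhej1, an end-joining factor, was called in all 8. Poll, another polymerase of this family, was called in 7 libraries, with up to 23.7% of its window covered. The median cover over this list was 0, as it was over all genes.

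Of 17 B-lineage transcription factors, 11 to 12 were called per library, beside 33.1% to 41.3% of all genes. In all 8 libraries 11 were called, beside 29.9%, and the median cover was 15.1%. Pax5 was covered to 30.0% to 91.0%. Tcf3, the E2A gene, which acts upstream of Ebf1, its relative Tcf12 and Ikzf1 were called in none. Of 18 receptor signalling and surface genes, 7 to 10 were called per library, beside the same 33.1% to 41.3%. Ms4a1 was called in none, and Cd40 was covered to at least 93.1% in every library. Of 10 early lymphoid progenitor genes, 4 were called in every library (Ccr7, Flt3, Notch1 and Satb1), beside 29.9% of all genes. The other 6, with Il7r, the receptor for interleukin 7, among them, were called in none, beside 52.6%. No gene of these 4 lists was called in both libraries of a group and neither of the other in any of the 4 comparisons.

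Over all genes, 0.178% to 1.20% were called in both libraries of 1 group alone, by comparison and direction, so a count of 0 in these lists is near the background. A few marker genes of other lineages were called in that way, and the difference between lists was not tested. Kit was covered to 8.28% ± 0.925 in WT VEH and 0 in RH VEH. Mpo, the granule peroxidase, was covered to 31.5% ± 15.8 in WT VEH and 0 in RH VEH, and Csf3r, a cytokine receptor gene of granulocytes, to 17.4% ± 14.8 and 0 (SD, n = 2). In RH MET against RH VEH, Csf3r and Vwf, the von Willebrand factor gene, were called in RH MET alone. Of 10 myeloid markers, 3 to 6 were called per library, of 10 stem and progenitor markers 3 to 8, of 9 erythroid and megakaryocyte markers 2 to 5, of 12 T-lineage markers 9 to 11, and of 9 stromal and endothelial markers 7 in each. Beside these stand the 33.1% to 41.3% of all genes called per library. The part of cell composition in the calls at Dntt was not tested.

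Over all 10379 genes with a call in at least 1 library, 0 passed an adjusted p of 0.05 in the permutation test between genotypes and 0 between treatments. At an unadjusted p under 0.05 there were 403 (3.88%) between genotypes and 124 (1.19%) between treatments. The smallest adjusted p was 0.736 between genotypes and 1 between treatments. The smallest p that 4 against 4 libraries allow is 0.0286, and no other possible p lies under 0.05. Without any difference the expected share is therefore at most 0.0286, not 0.05. All genes were measured in the same 8 libraries, so nothing was read from these shares. With this floor, adjustment over 10379 genes gives a value under 0.05 only if most of the genes reach the floor. The counts of 0 therefore say little about whether genes differ.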

How the data were processed

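The authors deposited, per the file headers, 1 list of H3K27me3 intervals and 1 of summits per library on mm10, called library by library. Summit heights are scores in whole numbers, deposited by the authors with no unit. bcl2fastq 2.20, BWA 0.7.12 and mm10 are named per the submitters' processing notes. Caller, settings, depth adjustment and the use of the 1 input library: not given in the sources used here. Edges fall on 200 bp steps.

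Intervals were laid over gene spans with 5 kb flanks (RefSeq, GRCm38.p6), and percent covered was computed per library. All 9 genes matched, and 8 were matched in the promoter table. Percent covered was compared by two-sided exact permutation of 4 against 4 libraries over 70 assignments, with Benjamini-Hochberg adjustment over 10379 genes. Each contrast pooled over the other factor, which was not held fixed in the permutation. Differences of opposite sign at the levels of that factor would therefore offset each other. The permutation was tested on simulated data. Python 3.11.15, numpy 2.4.6, pandas 2.3.3 and matplotlib 3.10.9 were used.

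The genes, the 10 lists and the tests were chosen with earlier results of these data known. The rule for named genes took the 9 genes, the anchors, up to 5 genes with the calls of Dntt, and up to 4 separated genes per list in alphabetical order. Other genes of the lists, among them Lig4, Polm, Poll, Nhej1, Cd40 and Il7r, were named after their values were seen. Promoters were printed for genes with a start marked in part of the libraries, and for up to 2 never marked and 2 always marked. The labels do not tie the 2 libraries of a group to different mice, and the p-values reflect only how far these libraries scatter, possibly for technical reasons. Alternatives were other flanks, a minimum summit height of 15, 11620 intervals per library, at least 10% covered, scaling by total cover, a replicate block, and each library left out.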

Additional observations from a re-analysis of the deposited data

Results flagged for a closer look

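The difference in Dntt cover between metformin and vehicle had opposite signs in the 2 genotypes, which restates the calls that chose the set. Metformin minus vehicle was 17.6 percentage points in WT and -10.2 in RH, so that the WT difference minus the RH difference was 27.8 percentage points. Both libraries of each group lay on the same side, which the same calls imply. With only intervals of height 15 or more, Dntt stayed called in WT MET 2 alone. The difference was not tested, since the Dntt calls chose the set of genes.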

How the results depend on the processing

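Of 174 alternative values, 138 were counted as unchanged, 30 moved and 6 changed sign. Unchanged meant a count of similar size, a Dntt contrast within the spread, or a tested difference with the same sign and side of the threshold. Hardly any setting could bring an adjusted p under 0.05, so an unchanged side of the threshold says little about stability. A minimum summit height of 15 took the number of the 9 genes called in 1 group alone to 0 in all 4 comparisons, from 1 (2 in RH MET against WT MET). It left 1 gene, which was not Dntt, with the calls first seen at Dntt and 2 with the reverse. The Dntt contrast fell from 13.9 to 3.85. At least 10% covered gave 0 in RH VEH against WT VEH and in RH MET against RH VEH. It gave 5 genes with the calls first seen at Dntt and 5 with the reverse. Dntt was not among the former, although that count was labelled unchanged. RH MET against WT MET gave 1 without flanks, with 10 kb flanks and with an equal number of intervals. Without flanks 2 genes had the calls of Dntt and 3 the reverse, and the reverse gave 3 with 10 kb flanks and 2 with an equal number. With each library left out, the count was 1 in RH VEH against WT VEH. It was 1 to 2 in RH MET against RH VEH and in WT MET against WT VEH. In RH MET against WT MET it was 2 to 3. Genes with the calls of Dntt numbered 6 to 22 and those with the reverse 1 to 12. All of these counts could only stay or rise, since each library left out removes a requirement. The Dntt contrast was 11.9 to 15.9. With an equal number of intervals the treatment difference was -3.60 for Rag1 and -2.30 for Ebf1, whose difference was -0.80 scaled by total cover and -1.19 to 1.91 with each library left out. The cause was not tested. With the replicate block, 0 genes passed between genotypes and 0 between treatments, but its 36 assignments allow no p below 0.0556, so these counts say nothing about stability. The block gave 8 of the 138 values. The labels do not say whether libraries with the same number share more than that number. The correlations of their deviations were -0.0203 to 0.227 over 6 pairs of groups, with the highest between WT MET and RH VEH. Read depth is unknown and limits what an absent interval shows.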
